A study of Homo sapiens with 4 samples.

Results

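The genes described here encode the machinery that brings proteins into mitochondria: the protein-coding genes whose symbols begin with TOMM or TIMM, together with SAMM50, MTX1, MTX2, PAM16, DNAJC15, DNAJC19, GFER, CHCHD4, PMPCA and PMPCB. They were chosen by name and number 36 of the 60682 genes in the count table. RNA-seq of total RNA compared JJN3, a human cell line from multiple myeloma, a cancer of plasma cells, after transduction with a short hairpin RNA against the kinase WNK1 (shWNK1) with the same line after transduction with the hairpin the labels call NS, the control. Each group had 2 libraries, and both groups carried a transduced hairpin. The labels used here give no hairpin sequence, no time after transduction and no statement that the replicates were separate cultures, so p-values measure only how far these libraries scatter, which may be technical scatter. Effects of losing WNK1 and other effects of its hairpin cannot be told apart in this design.

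Nearly all mitochondrial proteins are made in the cytosol and imported. The TOM complex is the entry gate of the outer membrane, with TOMM20, TOMM22 and TOMM70 as receptors and TOMM40 as the channel, and the SAM complex inserts barrel-shaped proteins into that membrane. In the space between the membranes, CHCHD4 and GFER form disulfide bonds in incoming proteins, and the small TIM proteins act as chaperones for hydrophobic ones. The TIM22 complex inserts carriers into the inner membrane. The TIM23 complex passes presequence-bearing proteins towards the matrix, where a motor anchored by TIMM44 pulls them in and the peptidase of PMPCA and PMPCB removes the presequence.

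Library totals ran from 16973521 to 20164122 counts. WNK1 had 325 and 403 counts with its hairpin and 4911 and 4148 with the control hairpin, a 13.9-fold fall (log2 fold change -3.80, edgeR adjusted p = 4.2e-25), the direction the labels call for. Levels are given as CPM, counts relative to the library total, with totals scaled by TMM factors. The 9 plasma cell markers examined summed to 1996 and 1988 CPM in shWNK1 and 2212 and 2192 CPM in NS libraries. Within that list, however, 5 fell (SDC1 at log2 -1.32, MZB1, CD38, IRF4 and XBP1). Another 3 rose (SLAMF7 at log2 2.96, PRDM1 and JCHAIN), and 1 was not called. Markers of T and NK cells, myeloid cells and erythroid cells each summed to under 1.2 CPM, while those of mature B cells summed to 2.98 and 3.36 CPM in shWNK1 and to more, 8.38 and 6.91 CPM, in NS libraries, mostly from PAX5, which fell. The part of these marker differences in the results was not tested. EPCAM, listed as an epithelial marker, had 1861 to 2589 counts a library. Transcripts encoded by mitochondrial DNA took 5.82% and 6.02% of all shWNK1 counts, more than the 4.93% and 4.58% of NS counts. With them and the immunoglobulin genes left out, 15 import genes fell and 0 rose, as with them. In that fit 2995 of the 14819 tested genes fell and 2741 rose.

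Many transcripts of the import machinery were modestly lower in shWNK1 cells. Of the 36 genes, 34 had enough counts to be tested, and of these 15 fell, 0 rose and 19 were not called (edgeR quasi-likelihood test, adjusted p under 0.05 over all 14864 tested genes). Among all tested genes, 20.2% fell and 18.5% rose. At an unadjusted p under 0.05, 20 import genes were lower and 0 higher, beside 23.4% lower and 22.6% higher of all tested genes. DESeq2 called 14 falls and 0 rises among the import genes, beside 17.5% and 13.8% of the 12883 genes to which it gave an adjusted p. The median log2 fold change of the 34 genes was -0.28, beside 0.01 over all tested genes. The falls were small, from 1.12-fold (TIMM50) to 1.61-fold (TOMM40 and TIMM10), with a median of 1.34-fold, and 2 reached 1.5-fold. Since these are bulk libraries, fewer cells holding a transcript and less of it in each cell cannot be told apart.

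Both shWNK1 libraries lay below both NS libraries for 26 of the 34 genes and above them for 1, TIMM10B, with 7 overlapping. Over all tested genes these shares were 33.7% below and 34.7% above. Counts of all 36 genes together made up 0.226% (95% Wilson interval 0.223 to 0.228) and 0.221% (0.219 to 0.223) of the shWNK1 libraries. The shares were 0.251% (0.248 to 0.253) and 0.270% (0.268 to 0.273) of the NS libraries, both higher. The intervals hold for counting error alone, because PCR copies of a molecule are not separate observations.

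**Figure D1:**
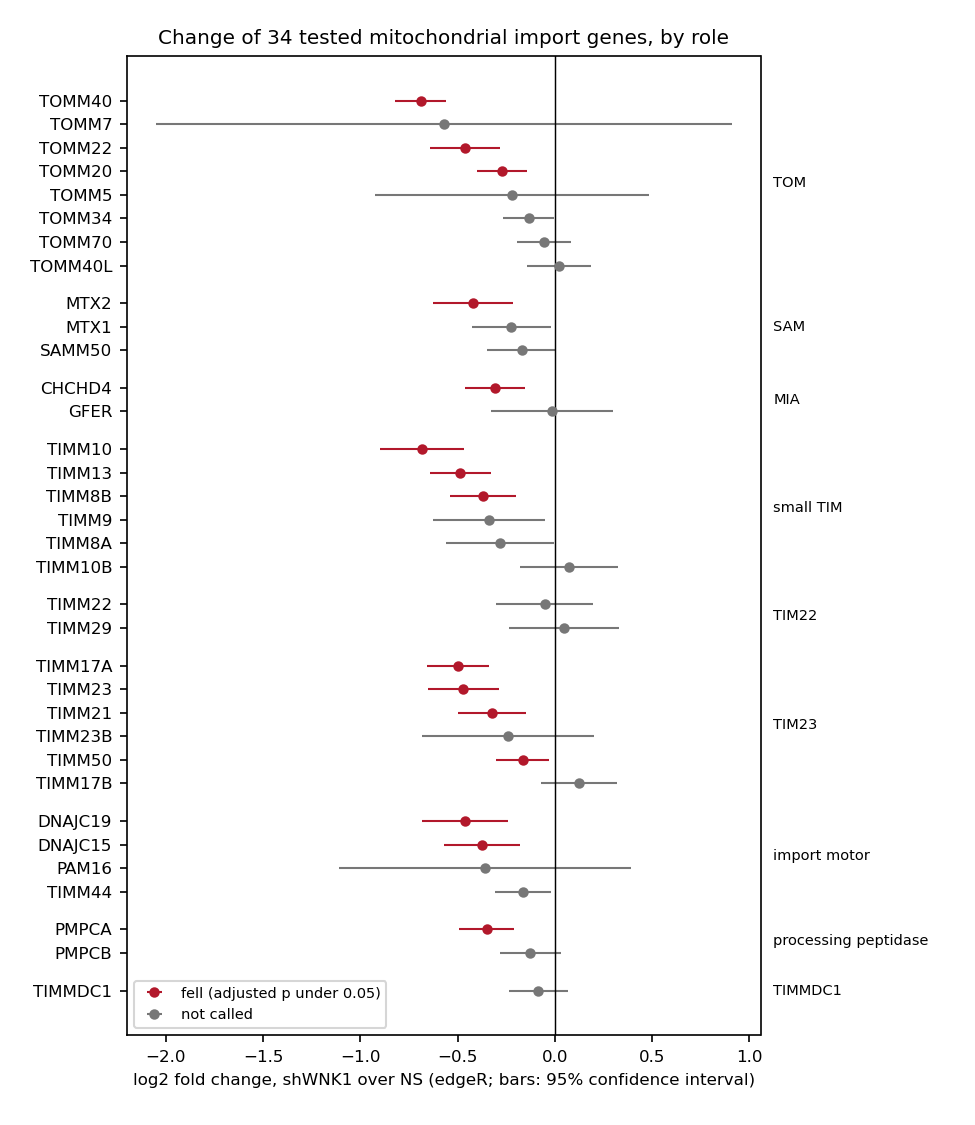
Log2 fold change (shWNK1 over NS) of each of the 34 tested import genes, grouped by role, with points for the edgeR estimate and bars for its 95% confidence interval. The 15 genes in red fell, and 30 of the 34 points lie left of 0.

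TOMM40, the channel of the TOM complex (chromosome 19, 44890569 to 44903689), had one of the 2 largest falls, with TIMM10. Its level was 161 and 168 CPM in the shWNK1 libraries and 249 and 282 CPM in the NS libraries. The groups did not overlap, with means of 164 ± 5.12 and 265 ± 23.5 CPM (SD, n = 2 each) and a log2 fold change of -0.69 (SE 0.065, edgeR adjusted p = 3.8e-10). It was called with each library left out, with values from -0.78 to -0.59. In NS cells its level per kilobase of annotated exon was the third of the 36 genes, at 73.5 CPM per kilobase, and in shWNK1 cells the fifth, at 45.5. TOMM40 has 4 pseudogenes in the table, whose summed counts were 152 and 176 with the WNK1 hairpin and 283 and 222 without it. TOMM40 itself had 2803 to 4768 counts.

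The central receptor TOMM22 stood at 69.3 and 75.7 CPM in shWNK1 and at 88.9 and 111 CPM in NS libraries. Both shWNK1 values were lower than both NS values (log2 fold change of -0.46 with an SE of 0.088, edgeR adjusted p = 1.1e-04), and without NS replicate 2 the log2 value was -0.29. TOMM20, the presequence receptor, was at 208 and 190 CPM against 245 and 235 CPM (log2 fold change of -0.27 with an SE of 0.062, edgeR adjusted p = 7.1e-04). This call was lost without shWNK1 replicate 2 (log2 -0.21, edgeR adjusted p = 0.104). The third receptor, TOMM70, which binds carrier precursors together with cytosolic chaperones, overlapped between groups, with 188 and 173 CPM in shWNK1 and 200.1 and 175 CPM in NS libraries (edgeR adjusted p = 0.545, log2 95% interval -0.20 to 0.08). TOMM70 was called without NS replicate 2 (log2 -0.15, edgeR adjusted p = 0.0455), and without NS replicate 1 its sign turned (log2 0.04, edgeR adjusted p = 0.668). The cytosolic cochaperone TOMM34, the highest of the 36 genes per kilobase in both groups, had a log2 fold change of -0.14 (edgeR adjusted p = 0.0913; 0.0192 without NS replicate 1).

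Small TOM subunits were poorly measured. TOMM7 was at 72.4 and 68.7 CPM in shWNK1 and at 74.5 and 135 CPM in NS libraries, so its log2 fold change of -0.57 (edgeR adjusted p = 0.405) rested on NS replicate 2. Leaving out NS replicate 1 gave -0.94 and leaving out NS replicate 2 gave -0.08. TOMM5 had 40 to 56 counts in each library (edgeR adjusted p = 0.665). TOMM6 had 0 counts in every library, which allows up to 0.146 to 0.177 CPM (3 counts). Another gene of the table, ENSG00000124593, covers 100% of the coding bases of TOMM6, and the recorded counting command does not ask for reads over several genes to be counted. Other genes also cover 64.6% of the coding bases of TOMM5, so neither level is known. TOMM20L, a relative of TOMM20, had 2 to 7 counts and was not tested.

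**Figure D2:**
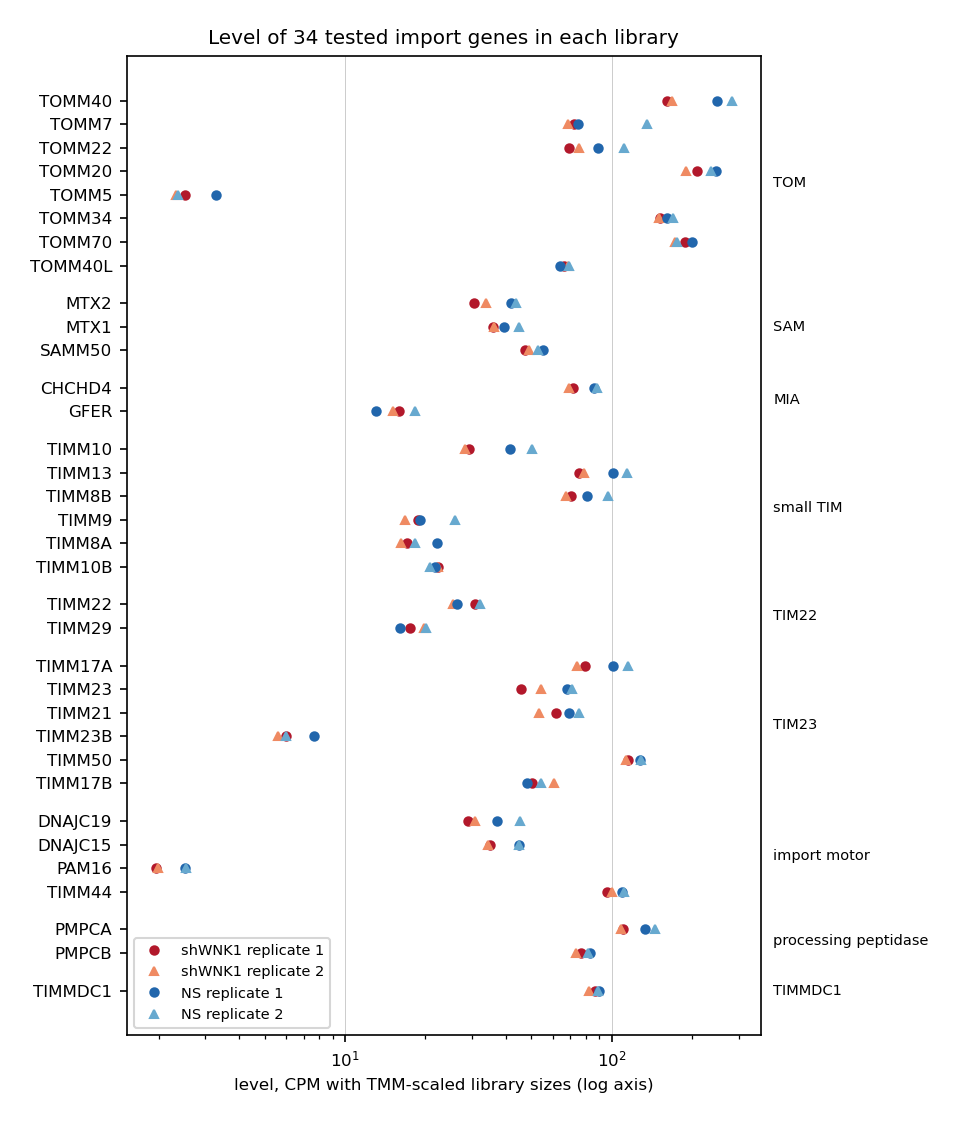
Level of each tested import gene in each of the 4 libraries, in CPM with TMM-scaled library sizes on a log axis. Red and orange points are the shWNK1 libraries and blue points the NS libraries: for TOMM40 the former lie at 161 and 168 and the latter at 249 and 282, and for TOMM7 NS replicate 2 stands apart at 135.

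In the SAM complex 1 of 3 genes fell. MTX2, metaxin 2, was at 30.4 and 33.7 CPM in shWNK1 and 42.1 and 43.9 CPM in NS libraries (log2 fold change of -0.42 with an SE of 0.10, edgeR adjusted p = 0.0010), and this call ended without shWNK1 replicate 1 (log2 -0.35, edgeR adjusted p = 0.0634). Its partner MTX1 (log2 -0.22, edgeR adjusted p = 0.0727; 0.0130 without NS replicate 1 and 0.405 without NS replicate 2) and the central subunit SAMM50 (log2 -0.17, edgeR adjusted p = 0.124) were not called, although both shWNK1 libraries lay below both NS libraries for each.

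Of the pair that forms disulfide bonds between the membranes, the import oxidoreductase CHCHD4 fell, from 85.6 and 88.2 CPM in NS to 71.3 and 69.0 CPM in shWNK1 libraries (log2 fold change of -0.31 with an SE of 0.076, edgeR adjusted p = 0.0015; 0.0558 without shWNK1 replicate 2). Its oxidase GFER overlapped, at 16.0 and 15.1 CPM in shWNK1 and 13.02 and 18.3 CPM in NS libraries (edgeR adjusted p = 0.960, log2 95% interval -0.33 to 0.30). Another gene, ENSG00000261790, covers 35.0% of the coding bases of GFER, so its level is uncertain.

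Of the 6 small TIM chaperones 3 fell. TIMM10, the partner of TIMM9 (chromosome 11, 57528464 to 57530803), was at 29.1 and 28.1 CPM in shWNK1 and 41.6 and 50.4 CPM in NS libraries. The groups were well apart, with a log2 fold change of -0.68 (SE 0.11, edgeR adjusted p = 3.7e-06). TIMM13, which pairs with TIMM8A, was at 75.2 and 78.4 CPM against 101 and 114 CPM (log2 fold change of -0.49 with an SE of 0.076, edgeR adjusted p = 4.7e-06). TIMM8B was at 70.4 and 67.2 CPM against 80.9 and 96.7 CPM (log2 fold change of -0.37 with an SE of 0.083, edgeR adjusted p = 6.3e-04; log2 -0.23 without NS replicate 2).

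TIMM9 itself was not called, at 18.7 and 16.7 CPM in shWNK1 and 19.1 and 25.8 CPM in NS libraries (log2 fold change -0.34, edgeR adjusted p = 0.0557). The value leaned on the NS library used: -0.54 without NS replicate 1 and -0.10 without NS replicate 2. TIMM8A, the deafness-dystonia gene, was at 17.0 and 16.2 CPM against 22.2 and 18.3 CPM (log2 -0.28, edgeR adjusted p = 0.10; 0.0211 without NS replicate 2 and, at log2 -0.14, 0.529 without NS replicate 1). TIMM10B differed little, at 22.4 and 22.3 CPM in shWNK1 and 21.7 and 20.8 CPM in NS libraries (edgeR adjusted p = 0.697). Another gene, ENSG00000283977, with 0 counts, covers 100% of its coding bases, so its level is uncertain.

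The 2 genes grouped here under the TIM22 carrier translocase, TIMM22 and TIMM29, were not called. This grouping does not cover the whole complex. TIMM9, TIMM10 and TIMM10B are given with the small TIM chaperones, where TIMM10 fell. AGK, from the wider list of import pathway genes, was not called (log2 -0.09, edgeR adjusted p = 0.333). The channel gene TIMM22 was at 30.8 and 25.4 CPM in shWNK1 and 26.3 and 32.0 CPM in NS libraries (edgeR adjusted p = 0.772, log2 95% interval -0.30 to 0.19). TIMM29, a metazoan subunit, was at 17.5 and 19.7 CPM against 16.1 and 20.1 CPM (edgeR adjusted p = 0.835, log2 95% interval -0.24 to 0.33). At an unadjusted p under 0.05 both TIMM22 and TIMM29 remained uncalled, and DESeq2 called neither.

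Of the 6 TIM23 genes 4 fell. TIMM17A, a core subunit (chromosome 1, 201955503 to 201970664), was at 79.5 and 74.0 CPM in shWNK1 and 101 and 115 CPM in NS libraries (log2 fold change of -0.50 with an SE of 0.077, edgeR adjusted p = 4.0e-06). TIMM23, the core channel subunit, was at 45.6 and 54.3 CPM against 68.0 and 70.8 CPM (log2 fold change of -0.47 with an SE of 0.089, edgeR adjusted p = 7.2e-05). TIMM21, a subunit that faces the TOM complex, was at 62.0 and 53.6 CPM against 69.0 and 75.5 CPM (log2 fold change of -0.32 with an SE of 0.086, edgeR adjusted p = 0.0032; 0.174 without shWNK1 replicate 2).

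TIMM50, the receptor of the complex, was just past the threshold, at 115 and 113 CPM in shWNK1 against 128 and 129 CPM in NS libraries (log2 fold change of -0.17 with an SE of 0.067, edgeR adjusted p = 0.0497). Its log2 value stayed between -0.17 and -0.15 in the alternatives, but the call ended with DESeq2 (0.119), with no low-count filter (0.0749), with the replicate block (0.070), without either shWNK1 library (0.224 and 0.281) and without NS replicate 2 (0.0686). TIMM23B, whose sequence is close to that of TIMM23, had 102 to 131 counts (edgeR adjusted p = 0.411). The readthrough gene TIMM23B-AGAP6 covers 100% of its coding bases, and reads that fit both copies can fail the mapping quality minimum, so the levels of TIMM23 and TIMM23B are uncertain.

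The import motor held 2 falls among 4 genes, both in J-domain cochaperones that stimulate the mitochondrial HSP70. DNAJC19 (chromosome 3, 180983709 to 180989774) was at 28.95 and 30.7 CPM in shWNK1 and 37.0 and 45.4 CPM in NS libraries (log2 fold change of -0.46 with an SE of 0.11, edgeR adjusted p = 8.5e-04; log2 -0.31 without NS replicate 2). DNAJC15 was at 35.0 and 34.4 CPM against 45.0 and 45.0 CPM (log2 fold change of -0.37 with an SE of 0.096, edgeR adjusted p = 0.0022). The anchor TIMM44 was lower in both shWNK1 libraries without being called (log2 -0.16, edgeR adjusted p = 0.0627; 0.0458 without NS replicate 1). PAM16, the regulator of the J-proteins, had 34 to 43 counts (edgeR adjusted p = 0.479), and CORO7-PAM16 covers 64.9% of its coding bases.

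For the processing peptidase, the alpha subunit gene PMPCA fell, from 133 and 145 CPM in NS to 110.4 and 108 CPM in shWNK1 libraries (log2 fold change of -0.35 with an SE of 0.068, edgeR adjusted p = 9.9e-05). The catalytic beta subunit gene PMPCB was at 77.0 and 73.7 CPM in shWNK1 and 82.7 and 81.6 CPM in NS libraries (log2 fold change -0.13, edgeR adjusted p = 0.201). TIMMDC1, which shares the name stem but acts in assembly of respiratory complex I, was at 86.3 and 82.0 CPM against 89.9 and 88.6 CPM (log2 fold change -0.09, edgeR adjusted p = 0.395).

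Related genes were set against each other as 6 pairs, by their ratio within each library. TOMM40 exceeded its paralog TOMM40L 2.42-fold and 2.45-fold in CPM in the shWNK1 libraries and 3.87-fold and 4.09-fold in the NS libraries. TOMM40L itself was at 66.4 and 68.6 CPM in shWNK1 and at 64.2 and 68.9 CPM in NS libraries (edgeR adjusted p = 0.872, log2 95% interval -0.14 to 0.19). The log2 ratio was lower in shWNK1 by a difference of -0.71, with no overlap between groups.

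The ratio of TIMM17A to its paralog TIMM17B was 1.58 and 1.22 in shWNK1 and 2.11 and 2.13 in NS libraries, a difference of -0.61 on the log2 scale without overlap. TIMM17B was at 50.3 and 60.9 CPM in shWNK1 and 48.1 and 54.1 CPM in NS libraries (edgeR adjusted p = 0.328, log2 95% interval -0.07 to 0.32). The ratios of TIMM10 to TIMM10B (difference -0.75) and of PMPCA to PMPCB (-0.22) also did not overlap, while those of TIMM8B to TIMM8A (-0.09) and DNAJC19 to DNAJC15 (-0.09) did. For levels of single genes, 33.7% of all tested genes lay below without overlap and 34.7% above. No such share was computed for ratios. With 2 libraries a group the two-sided exact permutation test cannot go below p = 0.333 (0.50 adjusted over the 6 pairs), the value of each of the 4 pairs without overlap, so these differences could not pass a threshold.

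**Figure D3:**
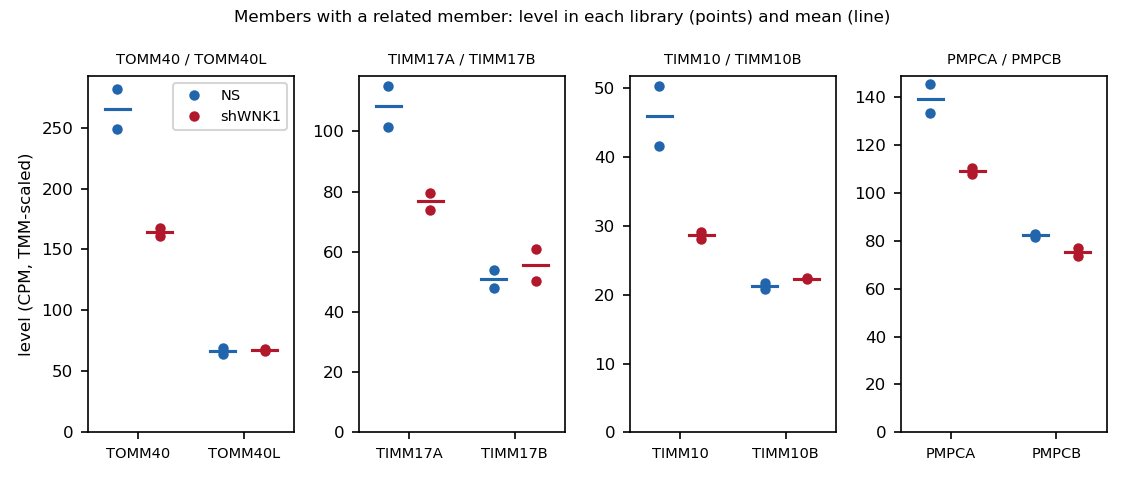
Level in CPM (points, 1 per library; lines, mean of 2) of 4 pairs of related import genes in NS (blue) and shWNK1 (red) libraries, on axes that start at 0. Only pairs whose ratios did not overlap between groups are shown: TIMM8B with TIMM8A and DNAJC19 with DNAJC15, which overlapped, are left out. TOMM40 drops from a mean of 265 to 164 while TOMM40L is at 66.6 and 67.5, and TIMM17A drops from 108 to 76.8 while TIMM17B is at 51.1 and 55.6.

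The NS libraries were not alike for these genes: 25 of the 34 stood higher in NS replicate 2 than in NS replicate 1, with a median log2 difference of 0.09. Of the 14864 tested genes 7362 did, with a median of -0.00. The shift was not particular to the import genes, since 61 of 77 tested mitochondrial ribosomal protein genes also stood higher in NS replicate 2 (median 0.13). Across the 34 import genes the difference between the NS libraries was larger for genes with less annotated exon sequence (Spearman's rho -0.43). This rho was -0.19 across all tested genes and -0.20 across the ribosomal protein genes, a description over genes that share the same pair of libraries. For the log2 fold change between hairpins rho with exon length was 0.23 across the 34 genes and 0.07 across all tested genes, lower values going with less exon sequence. Falls numbered 20 without NS replicate 1 and 16 without NS replicate 2, and the median log2 fold change was -0.28 and -0.24. A part of RNA quality or library preparation in this was not tested.

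For comparison 43 other genes of the import pathway were listed (cytosolic chaperones and targeting factors, insertases, matrix folding and processing enzymes, and the inner membrane organiser MICOS). Of these 42 were tested, 19 fell and 2 rose, beside 20.2% and 18.5% of all tested genes. The other 21 were not called, and the median log2 fold change of the 42 was -0.21. Without shWNK1 replicate 1 the falls numbered 12, and the rises numbered 1 without either shWNK1 library or NS replicate 2. The smallest p among the falls went to the matrix chaperonin HSPD1 (1549 ± 22.4 CPM in NS and 436 ± 1.14 in shWNK1, SD, n = 2), the cytosolic J-protein DNAJA2 (log2 -1.17), the ubiquilin UBQLN1 (-0.85) and the chaperone HSP90AA1 (-0.62). The MICOS subunit APOOL rose (log2 0.33, edgeR adjusted p = 0.0319; 0.148 with DESeq2). The motor's HSP70 HSPA9 (log2 -0.42) and its exchange factor GRPEL1 (-0.39), picked after their values were seen, fell, while the other mitochondrial exchange factor, GRPEL2, was not called (log2 0.05, edgeR adjusted p = 0.744).

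Genes of other mitochondrial groups give a scale for these counts, beside the 20.2% of all tested genes that fell and the 18.5% that rose. Of 77 tested mitochondrial ribosomal protein genes 46 fell and 1 rose, with a median log2 fold change of -0.26. Of 39 tested SLC25 carrier genes, whose products travel through the small TIM and TIM22 route, 13 fell and 4 rose, with a median of -0.14. The difference between these groups and the import genes was not tested. The 34 import genes spanned log2 fold changes from -0.69 to 0.12, the ribosomal protein genes from -1.40 to 0.44 and the carriers from -1.54 to 1.14.

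**Figure D4:**
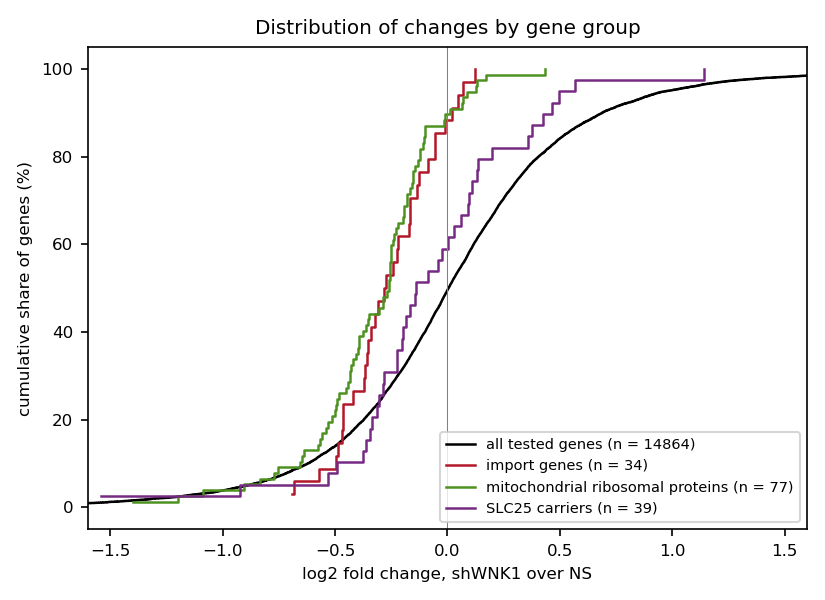
Cumulative share of genes (%) by log2 fold change, shWNK1 over NS, for the import genes (red), mitochondrial ribosomal protein genes (green), SLC25 carrier genes (purple) and all tested genes (black). The medians are -0.28, -0.26, -0.14 and 0.01.

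Sequence features of the promoters were counted because 15 of these genes fell. RefSeq promoters (build GRCh38.p14, 250 bases before to 50 after the gene start) matched 34 of the 36 genes by symbol. The word CCGGAAG, the core that ETS-family factors recognise, was present on either strand in 15 of the 34 (44.1%), in 14.2% of 15843 protein-coding promoters and in 20.1% of the promoters of tested genes. It was in 7 of 14 import genes that fell and 7 of 18 that were not called. The word was in 42.0% of mitochondrial ribosomal protein promoters and in 20.0% of SLC25 carrier promoters. Among all tested genes the word was in 21.2% of promoters of genes that fell and 20.8% of those of genes not called. Windows around it, with the word or its reverse complement in capitals, are shown for 5 genes that fell:

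TIMM10 at chr11:57530753-57530775, minus strand: ctttcctcCCGGAAGtaacccac
TOMM22 at chr22:38681950-38681972, plus strand: cctttccgCTTCCGGtgtcccct
TOMM20 at chr1:235128845-235128867, minus strand: gactgggaCCGGAAGtggcgtgt
TIMM13 at chr19:2427582-2427604, minus strand: gcggcccgCTTCCGGcgcagtta
MTX2 at chr2:176269428-176269450, plus strand: cggctgcgCCGGAAGtccctagc

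The promoters of TOMM40 and TIMM17A did not hold this word in that window. The E-box CACGTG was in 3 of 34 import promoters (TIMM10, TIMM8A and TOMM20), 8.82% against 8.88% of all protein-coding promoters and 10.2% of those of tested genes. It was in 2 of 14 import genes that fell and 1 of 18 not called. Among all tested genes it was in 11.9% of those that fell and 9.63% of those not called. Mitochondrial ribosomal protein promoters held it in 8.70% and SLC25 carrier promoters in 17.5%. GCGCATGC, part of the sequence bound by the respiratory factor NRF1, was in 5 (CHCHD4, PAM16, TIMM10B, TIMM9 and TOMM7), 14.7% against 4.26% of all protein-coding promoters, 5.77% of those of tested genes and 8.70% of mitochondrial ribosomal protein promoters, and it reads on both strands of the CHCHD4 promoter in overlapping positions. Of these 5 genes CHCHD4 fell and the other 4 were not called, and 0 of 40 SLC25 carrier promoters held GCGCATGC. A match is a string of letters and not a bound site.

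The word AGTATC, searched because it is more frequent in the 3′ UTRs of falling genes of these libraries (33.3% of 2806 falling genes searched, and 23.3% of all 11878), was present in the longest annotated 3′ UTR of 5 of the 34 tested import genes (14.7%). Of the 15 that fell 2 carried it, DNAJC15 with 3 copies and PMPCA with 1, and 13 did not, among them TOMM40, TIMM10 and TIMM17A. The carriers that were not called were TIMM8A, TIMMDC1 and TOMM40L. The median UTR length was 948 bases over the 34 genes, 1649 over the 5 carriers and 1370 over all genes searched. Among all genes searched, those with the word had a median of 3074 bases, and the part of UTR length was not tested. The word was chosen from falling genes of these libraries, so its counts here describe and do not test. The sites of 2 falling and 2 uncalled carriers are shown on hg38, with the word in capitals:

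PMPCA at chr9:136423437-136423460, plus strand: agtggagtcAGTATCgagcctgac
DNAJC15 at chr13:43111854-43111877, plus strand: ggctggatcAGTATCatctacttg
TIMM8A at chrX:101346912-101346935, minus strand: tttgggtaaAGTATCtctgtgcca
TOMM40L at chr1:161229303-161229326, plus strand: accagccccAGTATCaccttcccc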

How the data were processed

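Per the file headers, the authors made fragment counts per gene using featureCounts v2.0.0 and GENCODE v34, without strand (setting 0) and with a mapping quality of at least 20, and deposited raw counts with each gene's summed exon length. Without strand, reads over exons shared with another gene may go uncounted. Of annotated exon bases, other genes cover 30.1% for TIMM8B, 29.4% for TIMMDC1, 26.6% for TIMM9, 20.3% for TOMM40L and 18.8% for TIMM13. They also cover 17.4% for MTX1, 14.2% for TIMM17B and 13.0% for PMPCB. Trimmomatic, STAR and hg38 are named in the submitters' processing notes. Of 60728 genes, 1 broken over several lines and 45 Y copies with 0 counts were left out. Symbols matched 60369 identifiers. Gene types and UTRs came from GENCODE v29.

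Counts of all 4 libraries were fitted with edgeR 4.0.16 (R 4.3.3): filterByExpr (14864 genes), TMM factors, glmQLFit (robust) and two-sided glmQLFTest with a single term, the hairpin group, leaving 2 residual degrees of freedom. Benjamini-Hochberg adjustment ran over all tested genes, and an adjusted p under 0.05 was a call. CPM used TMM-scaled library sizes, and levels per kilobase used the deposited exon length, which includes rarely used exons. Standard errors and intervals came from the quasi-likelihood F statistic. Scripts were tested on simulated counts, where 53 of 97 genes changed by log2 0.5 and 71 of 95 changed by log2 1 were called. In addition 10 unchanged genes were called, among 14473 tested. Far fewer genes were changed there than were called in these libraries, so the shares called need not carry over. A gene not called may therefore still have changed.

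The genes and lists were chosen with earlier results of these data known. Named genes were every import gene, WNK1, and up to 4 rising and 4 falling genes of the wider list by smallest p, of which 1 is not reported here. Alternatives were DESeq2 1.42.0, RLE factors, no low-count filter, leaving out immunoglobulin and mitochondrially encoded genes, the replicate number as a block, and leaving out each library.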

Additional observations from a re-analysis of the deposited data

How the results depend on the processing

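Over the 9 alternatives, import genes that fell numbered 14 with DESeq2, 15 with RLE factors, with no low-count filter, with immunoglobulin and mitochondrially encoded genes left out and with the replicate block, and 11 to 20 with a library left out, and import genes that rose numbered 0 in each. The median log2 fold change of the 34 genes ranged from -0.32 to -0.23 with a library left out. Of the 15 falls, 10 were called in every alternative: TOMM40, TIMM10, TIMM17A, TIMM13, TIMM23, DNAJC19, TOMM22, DNAJC15, TIMM8B and PMPCA. Of the 306 values of single import genes, 10 lost a call, 9 gained one and 0 reversed a called direction. Genes rising in the whole table, 2755, numbered 1780 with DESeq2 and 1632 to 2778 with a library left out, and genes falling, 3005, numbered 1964 to 3024. For the other import pathway genes, rises numbered 1 with DESeq2, 1 with the replicate block and 1 to 3 with a library left out, and falls numbered 12 to 21. The cause of these shifts was not tested. Tested genes numbered 14864 in the main fit, with RLE factors and with the replicate block, and 12883 with DESeq2. They numbered 28433 with no low-count filter and 15746 to 15885 with a library left out. With immunoglobulin and mitochondrially encoded genes left out they numbered 14819. Where a group kept 1 library, it was assumed to vary like the other group. The replicate differences of the 2 groups were uncorrelated (correlation 0.0013 over 14864 genes). Whether replicates of the same number were paired by design is not known. With the replicate block, 2804 genes fell and 2539 rose, TIMM50 was no longer called (edgeR adjusted p = 0.070) and TOMM7 was (0.0259, log2 -0.52). With 2 libraries a group, uncalled genes with under 60 counts, such as TOMM5 and PAM16, had log2 intervals over 1 wide. Wide intervals were not confined to low counts: in the main fit that of TOMM7, with 1262 to 2288 counts, ran from -2.05 to 0.91.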
